A study of Mus musculus with 11 samples.

Results

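The EGR family of zinc-finger transcription factors (Egr1, Egr2, Egr3 and Egr4) and their corepressors Nab1 and Nab2 were followed in mouse embryonic palatal mesenchyme cells (MEPMs) after 1 h of growth factor. These 6 genes were taken by symbol, from the RefSeq transcript accessions of the deposited expression table: each matched 1 row, so the set is 6 of 23286 rows. All 6 were among the 11702 rows with at least 1 FPKM in at least 1 group, the minimum set for comparison. MEPMs are mesenchymal cells of the embryonic palate, here from embryos at E13.5, grown in 10% serum (FBS) and then kept overnight in 0.1% serum. PolyA RNA was sequenced from starved cells with nothing added (4 libraries), from cells given 30 ng/mL PDGFA for 1 h (4 libraries) and from cells given 50 ng/mL FGF1 together with 1 µg/mL heparin for 1 h (3 libraries). Heparin, a cofactor of FGF binding, was given only with FGF1, so their effects cannot be told apart, and the ligand doses differed. The labels give no strain or genotype, and they do not say whether libraries of a group were separate cultures or litters.

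EGR genes are immediate early genes: their transcription needs no new protein and is switched on within minutes when a receptor tyrosine kinase activates ERK, which phosphorylates TCF-type ETS factors bound with SRF at CArG boxes in the promoter. The EGR proteins bind a GC-rich site through C2H2 zinc fingers. NAB proteins bind the repressor domain of Egr1, Egr2 and Egr3 and recruit the NuRD chromatin complex, and Nab2 is itself a known EGR target, which makes a negative feedback loop. Egr4 lacks the NAB-binding domain. Egr2 is best known for hindbrain patterning and Schwann cell myelination, and Egr3 for muscle spindle development and lymphocytes.

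The table gives a single FPKM per gene and group, made by the authors. FPKM counts sequenced fragments relative to transcript length and to the size of the library. The deposited lower and upper bounds of each FPKM are written in brackets. Single libraries have no values here, so neither the spread between replicates nor a p-value can be given, and depth is unknown. The rule for calling a gene higher or lower was that the deposited intervals lay apart and neither FPKM fell outside its own interval. By this rule 0.308% of the 11702 rows were higher and 0% lower with PDGFA than in starved cells, 0.538% higher and 0.0171% lower with FGF1 than in starved cells, and 0.0256% higher and 0.094% lower with FGF1 than with PDGFA. Intervals were widest with PDGFA: the distance from centre to bound had a median of 49.6% of the FPKM there, 25.6% in starved cells and 34.7% with FGF1. As a check of the cells, 7 of 9 markers of palatal mesenchyme had at least 1 FPKM in every group. Vim had 1982 FPKM in starved cells, Tbx22 was low at 0.0672, and Col1a1 was a failed estimate listed at 0. Markers at 1 FPKM or more in starved cells numbered 0 of 8 for epithelium and 2 of 5 for endothelium. They numbered 1 of 7 for blood and macrophages, of which only 5 had a row, and 1 of 7 for Schwann cells and glia. For neurons they were 2 of 5, Tubb3 and Stmn2, and that list summed to 76.2 FPKM in starved, 93.9 in PDGFA and 85.9 in FGF1 cells. The summed level of 6 skeletal muscle markers was 4.77 FPKM in starved, 11.7 in PDGFA and 4.53 in FGF1 cells. The part of these other cell types in the EGR values was not tested. In bulk RNA, fewer expressing cells and less RNA per cell cannot be told apart.

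RefSeq promoters of 4 members (Egr2, Egr4, Nab1 and Nab2) were read, as 250 bases before the transcript start in GRCm38.p6, the build of mm10. Egr2 had 5 promoters listed, and only the one nearest the start of its row was read. The 250 bases before the starts of Egr2 and Egr4 are shown, 5′ to 3′ on the strand of the gene, because both genes went from under 1 FPKM in starved cells to called rises with either ligand. Capitals mark every match to the CArG box, to the CRE core TGACG or to the ETS core CGGAA, on either strand. The Egr2 bases lie at chr10:67537619-67537868 on the plus strand, inside an intron of longer Egr2 transcripts of GENCODE. Those of Egr4 lie at chr6:85513590-85513839 on the minus strand. The Egr4 start used lies 47 bases upstream of the start of its deposited row, and the bases between were not scanned.
Egr2: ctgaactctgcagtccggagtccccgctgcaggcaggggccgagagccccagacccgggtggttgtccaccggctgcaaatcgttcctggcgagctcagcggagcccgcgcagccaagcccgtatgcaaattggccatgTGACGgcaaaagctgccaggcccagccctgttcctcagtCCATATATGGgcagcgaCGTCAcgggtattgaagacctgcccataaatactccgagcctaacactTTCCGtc
Egr4: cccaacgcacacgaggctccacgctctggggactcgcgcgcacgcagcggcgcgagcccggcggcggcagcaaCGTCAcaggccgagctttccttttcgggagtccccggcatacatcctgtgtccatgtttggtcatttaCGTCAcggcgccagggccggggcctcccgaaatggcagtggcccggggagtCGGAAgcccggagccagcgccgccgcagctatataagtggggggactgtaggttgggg

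Egr2 had a CArG box 72 to 63 bases before its start, flanked by CRE cores at 111 to 107 and 55 to 51 bases, and an ETS core at 7 to 3 bases. Of 32841 promoters of the same length, 1.47% held a CArG box, 17.8% a CRE core and 25.2% the ETS core. Egr4 had 2 CRE cores, at 177 to 173 and 109 to 105 bases, as 3.90% of promoters did with 2 or more, and 1 ETS core, but no CArG box in this window. The full CRE TGACGTCA holds this core on each strand, so it counts as 2 cores in the 3.90%. It was in none of the 4 promoters and in 1.55% of all. None of the matches shown overlapped another.

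The EGR site GCGNGGGCG was found in the Nab1 window and in none of the other 3 windows. Nab1 had 3 of them within 141 bases of its start, and 0.140% of promoters held 3 or more against 4.70% with at least 1. The Nab1 window was 80.8% G and C, and the median of all promoters was 52.4%. Each site is shown in 25 bases of the gene's minus strand, with the site in capitals, at chr1:52500573-52500597, chr1:52500541-52500565 and chr1:52500470-52500494 in this order. The first match is on the opposite strand.
Nab1 site, 141 to 133 bases before the start: cccgcggcCGCCCACGCcgggatct
Nab1 site, 109 to 101 bases before the start: tcggccgcGCGTGGGCGggagccgg
Nab1 site, 38 to 30 bases before the start: ggggcgggGCGGGGGCGgcggaggt

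Nab2 held no match to any of these motifs in its window. The promoters of Egr1 and Egr3 were not analysed here. A match or its absence describes only these letters.

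**Figure D1:**
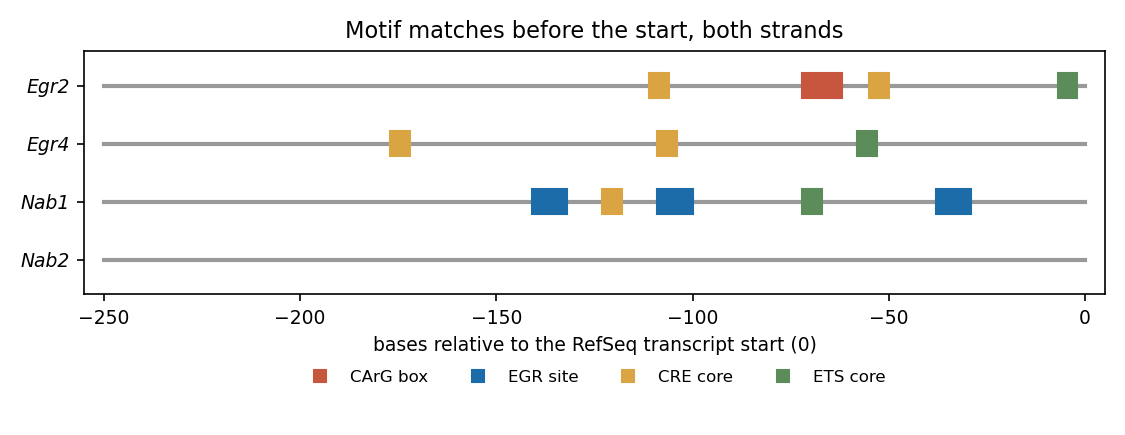
Matches to 4 motifs in the 250 bases before the RefSeq start of Egr2, Egr4, Nab1 and Nab2, with position relative to the start on the x axis and a coloured box per match on either strand. The only CArG box is in the Egr2 row, the 3 EGR sites are in the Nab1 row and the Nab2 row is empty.

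All 4 EGR factors rose with PDGFA and all 4 rose with FGF1, where the background of rows called higher was 0.308% and 0.538%. Both comparisons use the same starved cells. The median log2 fold of the 4 was 3.69 with PDGFA and 3.46 with FGF1, on FPKM + 0.5, a scale that understates the change of low genes. Over all 11702 rows the medians were −0.0029 and 0.02. Egr1 and Egr2 had their higher value with FGF1, Egr3 and Egr4 with PDGFA.

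Egr1 (NM_007913, chr18:34861207-34864956), the most studied member of the family, was the only EGR factor above 1 FPKM before stimulation. It stood at 11.4 FPKM [8.52 to 14.2] in starved cells, 49.7 [23.6 to 75.7] with PDGFA and 116 [76.7 to 155] with FGF1. No 2 of these intervals overlapped. In starved cells 49.1% of compared rows had a lower level than Egr1, with PDGFA 85.6% and with FGF1 94.8%. The ratio to starved was 4.37 with PDGFA (2.45 to 7.81) and 10.2 with FGF1 (6.71 to 15.5). Such intervals of a ratio were made from the deposited bounds, taken as independent 95% bounds.

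Egr2 (NM_010118, chr10:67537869-67542188) stood at 0.519 FPKM [0.283 to 0.745] before stimulation and passed the minimum level only through its stimulated values, as Egr3 and Egr4 did. It rose to 7.96 [3.40 to 12.5] with PDGFA and to 12.0 [7.86 to 16.2] with FGF1. The nearest ends of the starved and stimulated intervals were 4.57-fold apart with PDGFA and 10.6-fold with FGF1. With FGF1, 50.4% of compared rows had a lower level than Egr2.

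Egr3 (NM_018781, chr14:70077445-70080157) began at about the same value as Egr2, 0.520 FPKM [0.215 to 0.807]. It rose to 26.5 [9.31 to 43.4] with PDGFA and 20.4 [12.3 to 28.5] with FGF1. Both values were above those of Egr2, but the intervals of Egr3 and Egr2 overlapped with either ligand. On FPKM + 0.5 Egr3 had the largest log2 fold of the 6 members with both ligands, 4.73 and 4.36. With a pseudocount of 0.1, Egr4 had the larger one with PDGFA, 5.92 against 5.42, and its plain ratios were larger with both ligands. Among the 11702 rows, the Egr3 fold on FPKM + 0.5 ranked 5 from the largest with FGF1 and 71 with PDGFA. Of the 70 rows above it with PDGFA, 66 were listed at 0 FPKM in both other groups, and 2 were called. The Egr3 ratios to starved were 50.95 (21.6 to 120.2) and 39.3 (19.6 to 78.6).

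Egr4 (NM_020596, chr6:85511122-85513542) was lowest of the 4 in starved cells, at 0.0878 FPKM [0.0181 to 0.163]. PDGFA raised it to 11.2 [3.65 to 18.8] and FGF1 to 3.76 [2.16 to 5.37]. The ratios of 128 (44.1 to 373) and 42.9 (16.9 to 109) rest on that small starved value. The nearest ends of the intervals were 22.3-fold and 13.2-fold apart. Its log2 folds on FPKM + 0.5 were 4.32 and 2.86, and with pseudocounts from 0.1 to 1 the PDGFA fold ran from 5.92 to 3.49.

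Nab2 and Nab1, the corepressors, were both above 10 FPKM before any ligand was added. Whether their responses differed was not tested. Nab2 (NM_001122895 and NM_008668, chr10:127642986-127666703) had 29.0 FPKM [18.4 to 39.6] in starved, 67.6 [17.9 to 117] in PDGFA and 74.1 [43.6 to 105] in FGF1 cells. It rose with FGF1, by a ratio of 2.55 (1.47 to 4.43), with a gap of 3.94 FPKM between the intervals. With PDGFA the value was close to that with FGF1, but its interval, reaching 73.6% of the FPKM to either side, covered the whole starved interval. The ratio there was 2.33 (1.02 to 5.29). Under the other rule tried, that the approximate 95% interval of the ratio leaves out 1, Nab2 was called higher with PDGFA too. That rule called 1.08% of all rows higher with PDGFA and 1.03% with FGF1.

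Nab1 (NM_008667, chr1:52455849-52500448) did not pass in any comparison. It had 16.6 FPKM [13.0 to 20.2] in starved, 16.8 [9.0 to 24.5] in PDGFA and 18.0 [12.5 to 23.6] in FGF1 cells. The ratios were 1.01 (0.605 to 1.68) and 1.09 (0.746 to 1.58), so changes within those bounds were not detectable. By count, 0 of the 2 NAB genes were called with PDGFA, where 0.308% of all rows were, and 1 of 2 with FGF1, where 0.538% were.

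**Figure D2:**
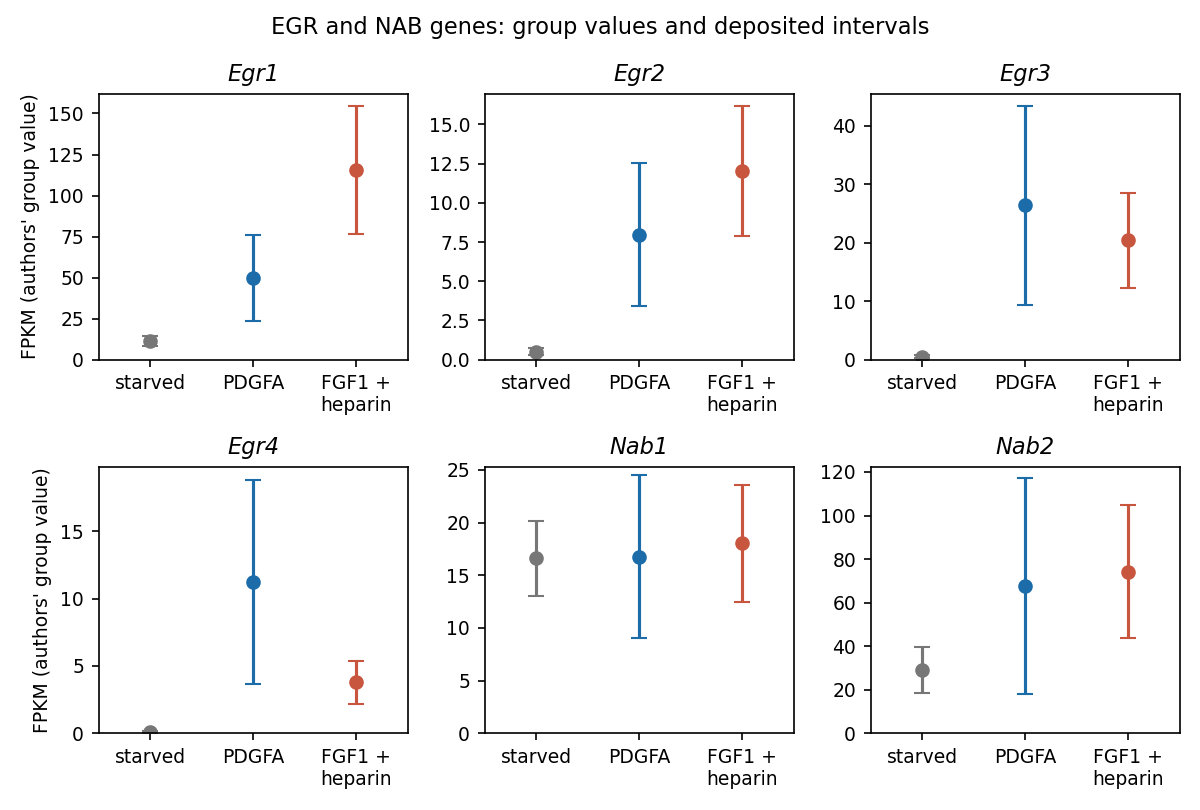
FPKM of the 6 genes in starved, PDGFA and FGF1 with heparin cells, with points for the authors' group values and bars for the deposited bounds. Axes differ between panels and start at 0: the starved value lies below both stimulated intervals for all 4 EGR genes, all 3 Nab1 intervals overlap, and the PDGFA interval of Nab2 spans its starved value.

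Between the ligands, Egr1 alone of the 6 members was called, and it was higher with FGF1. Egr1 was 2.33-fold higher with FGF1 than with PDGFA (1.25 to 4.35), with 0.967 FPKM between the ends of the intervals, where 0.0256% of all rows were higher by this rule. The call ended when each group was divided by its median-of-ratios factor, with a log2 fold of 1.19 in place of 1.21. Egr2 also had its higher value with FGF1, at a ratio of 1.51 (0.774 to 2.95). Egr3 and Egr4 had their higher values with PDGFA: the ratio of FGF1 to PDGFA was 0.771 (0.362 to 1.64) for Egr3 and 0.335 (0.151 to 0.743) for Egr4. The deposited intervals of Egr2, Egr3 and Egr4 overlapped between the ligands. By the ratio rule Egr4 was called lower and Egr1 higher with FGF1, where 0.35% of rows were lower and 0.12% higher. For Nab2 and Nab1 the ratios were 1.10 (0.472 to 2.55) and 1.08 (0.618 to 1.88).

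Across the whole table, PDGFA folds moved with base composition. The Spearman correlation of their log2 fold with transcript GC content was 0.611 over 11466 rows of at least 200 nt. It was 0.183 for FGF1 against starved cells and −0.599 for FGF1 against PDGFA. Genes are not independent replicates and share the libraries. The members ranged from 47.2% GC in Nab1 to 68.2% in Egr4. With a smooth trend on GC content, length and level removed, Egr4 had a log2 fold of 3.98 in place of 4.32 with PDGFA, and −1.20 in place of −1.46 between FGF1 and PDGFA. Egr1 had 1.96 in place of 2.08 with PDGFA, and Nab2 0.94 in place of 1.21. Every member kept its call or lack of one in all 3 comparisons under this alternative.

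**Figure D3:**
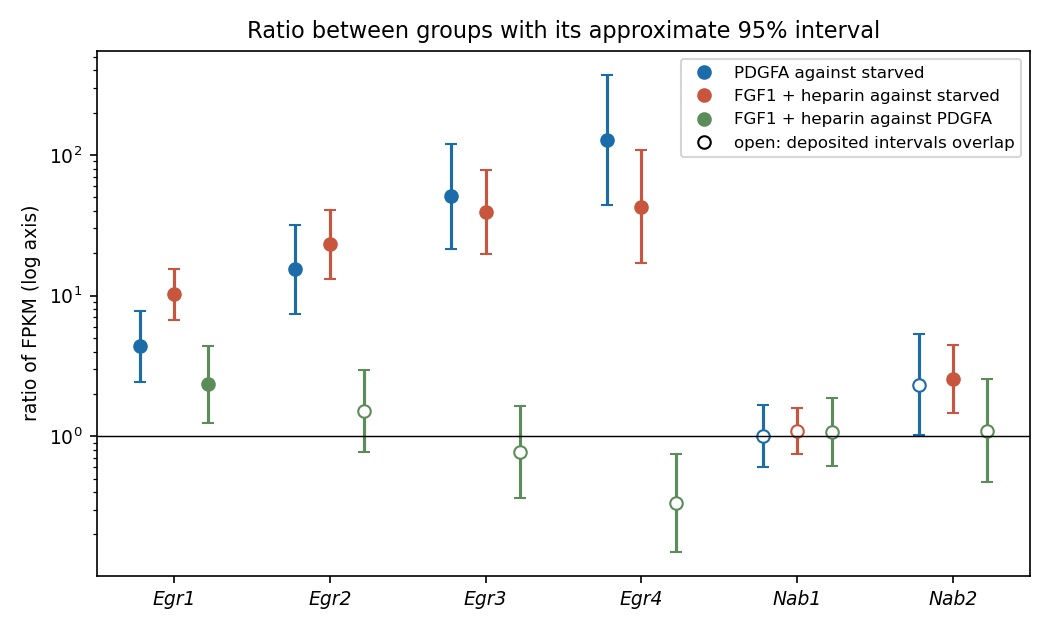
Ratio of FPKM between groups for each gene on a log axis, with approximate 95% intervals made from the deposited bounds. Filled points are comparisons whose deposited intervals lay apart: all 8 EGR ratios to starved cells, Nab2 with FGF1, and Egr1 between the ligands.

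Egr1 made up most of the EGR transcripts in starved and FGF1 cells and about equal parts with the other 3 in PDGFA cells. The 4 factors summed to 12.5 FPKM (9.64 to 15.3) in starved, 95.4 (63.0 to 128) in PDGFA and 152 (112 to 192) in FGF1 cells. Egr1 made up 91.0% of the sum in starved cells (87.5 to 94.4), 52.1% with PDGFA (35.3 to 68.8) and 76.2% with FGF1 (68.5 to 83.9). These shares compare genes within a group per transcript length, so a scaling factor of the group does not move them. The Egr1 share was lower with either ligand than in starved cells, and the intervals of the ligands overlapped slightly.

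Egr3 took 27.8% of the sum with PDGFA (12.6 to 43.0) and 13.4% with FGF1 (7.66 to 19.2), from 4.16% in starved cells. Egr4 took 11.8% (3.77 to 19.8) and 2.48% (1.26 to 3.70), from 0.703%, and its intervals with the ligands lay just apart. The trend on GC content, length and level was not removed from these shares. With PDGFA it was 0.362 log2 for Egr4 and 0.124 for Egr1. Whether the Egr4 intervals stay apart without it was not tested. The share of Egr2 was 8.34% and 7.91%, from 4.15%. Per transcript length, Egr1 exceeded Egr4 by 129-fold (54.6 to 307) in starved cells, by 4.42-fold (1.88 to 10.4) with PDGFA and by 30.8-fold (17.9 to 53.0) with FGF1. Egr1 over Egr3 was 21.9 (11.7 to 40.7), 1.88 (0.818 to 4.30) and 5.67 (3.37 to 9.55) in the same order.

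The EGR to NAB ratio was higher with either ligand than in starved cells. The summed EGR to summed NAB ratio was 0.274 (0.196 to 0.382) in starved cells, 1.13 (0.569 to 2.25) with PDGFA and 1.65 (1.07 to 2.53) with FGF1. The starved interval lay below both others, and those of the ligands overlapped. Without Egr1 the ratios were 0.0247 (0.0162 to 0.0375), 0.542 (0.261 to 1.12) and 0.393 (0.257 to 0.599). The order of the values between the ligands turned, but the intervals of the ligands overlapped. The Nab2 to Nab1 ratio was 1.75 in starved, 4.03 in PDGFA and 4.11 in FGF1 cells. No intervals were made for these ratios, and whether they differ between groups was not tested. The Nab2 bounds behind them reached 73.6% of the FPKM to either side with PDGFA.

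**Figure D4:**
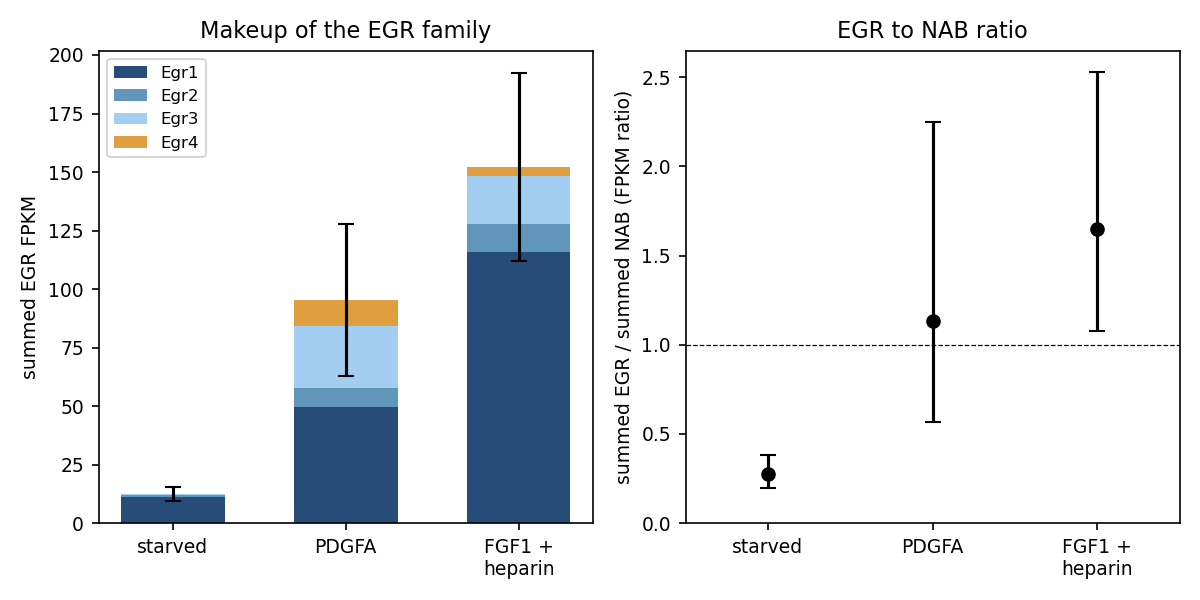
Left, summed FPKM of the EGR factors by group, coloured by factor, with approximate 95% intervals of the sum; right, ratio of summed EGR to summed NAB FPKM with its approximate 95% interval. Egr1 fills 91.0% of the starved bar but 52.1% of the PDGFA bar, and the interval of the ratio lies below 1 in starved cells, spans 1 with PDGFA and lies above it with FGF1.

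By level, the order in starved cells was Nab2, Nab1, Egr1, Egr3, Egr2 and Egr4. Neighbours overlapped from Nab2 to Egr1 and from Egr3 to Egr2, a gap lay between Egr1 and Egr3, and Egr4 lay apart below Egr2. With PDGFA the order was Nab2, Egr1, Egr3, Nab1, Egr4 and Egr2, and every neighbouring pair overlapped. With FGF1 it was Egr1, Nab2, Egr3, Nab1, Egr2 and Egr4, with gaps between Nab2 and Egr3 and between Egr2 and Egr4.

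The rows nearest to each called member were found by the distance between their pairs of log2 folds over starved cells, 3 rows per member, over 3 group values that share the starved cells. Nearest to Egr1 were the ERK phosphatase gene Dusp5 (distance 0.47), the stress-responsive factor gene Atf3 (0.70) and the AP-1 gene Junb (0.90). All 3 had a smaller FGF1 fold than the 3.29 of Egr1: 2.82, 2.64 and 2.52. Nearest to Egr2 were the orphan nuclear receptor gene Nr4a1 (0.61), Egr1 (1.03) and Arc (1.03), a gene of activity-regulated cytoskeletal protein. Arc (0.80), Nr4a1 (1.28) and Egr4 (1.55) were nearest to Egr3, and the AP-1 gene Fosb (0.56), Nr4a1 (1.03) and Arc (1.13) to Egr4. Fosb shared with Egr4 a larger PDGFA than FGF1 value, 10.1 FPKM [3.31 to 16.9] against 4.51 [2.91 to 6.08], with overlapping intervals. Nab2 had closer neighbours, Ier5l (0.15), the kinase gene Pim1 (0.18) and the AP-1 gene Jun (0.18), and of these Jun was called higher with PDGFA as well as FGF1.

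**Figure D5:**
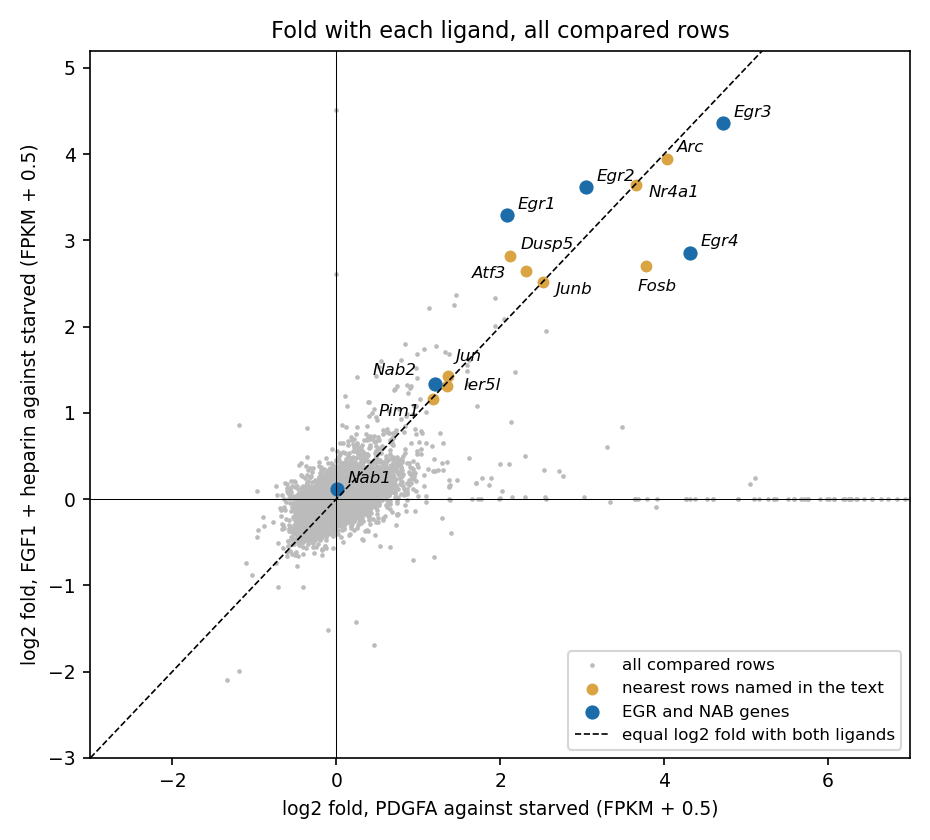
Log2 fold with PDGFA (x axis) and with FGF1 and heparin (y axis) over starved cells on FPKM + 0.5, with grey points for compared rows and named points for the members and their nearest rows; 44 rows lie outside the axes. Egr1 and Egr2 lie above the line of equal folds, Egr3 and Egr4 below it, and Nab1 lies at the centre of the cloud; grey rows along a y value of 0 had a PDGFA fold with no FGF1 fold.

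Of 20 genes from RAS to SRF and its cofactors, which act upstream of the EGR promoters, 0 were called in any comparison. With 0.308% of all rows called higher with PDGFA and 0.538% with FGF1, a count of 0 in lists of this size is near the background and is no result about them, which holds for the lists of 13, 10 and 4 genes described next as well. The median log2 folds of the 20 were 0.05 and 0.10 over starved cells. Srf itself, which binds the CArG box, had 28.2 FPKM [22.1 to 34.3] in starved, 58.4 [27.5 to 89.3] in PDGFA and 42.6 [29.2 to 55.8] in FGF1 cells. Hras, of a RAS GTPase, had 51.97, 84.2 and 67.95 FPKM. The TCF genes Elk1, Elk3 and Elk4 stood at 14.8, 26.1 and 6.11 FPKM in starved cells and at 16.4, 27.4 and 7.56 with FGF1.

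Of 13 subunits of NuRD, the partner complex of NAB proteins, 0 were called, near the background of 0.308% and 0.538%, with median log2 folds of 0.10 with PDGFA and 0.07 with FGF1. The largest PDGFA folds were those of Mbd3, a methyl-CpG-binding family subunit, at 78.8 FPKM before and 129 after PDGFA, and of the remodeller gene Chd3 at 69.95 and 104. Chd4, the remodeller that NAB2 binds, had 47.8, 49.98 and 42.5 FPKM. Of 11 coactivators and other factors binding GC-rich sites, 10 were compared and 0 called, again near 0.308% and 0.538%. Klf6 had 45.2 FPKM before and 75.0 after FGF1 and Klf4 70.5 and 109, both zinc-finger factors, with overlapping intervals. Wt1, which binds a site like that of EGR, was near 0 at 0.0104 FPKM in starved cells.

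Of 26 growth factor, matrix and survival genes reported elsewhere as EGR targets, 23 were compared. With PDGFA 2 were called higher, Atf3 and Arc, where 0.308% of all rows were. With FGF1 4 were called higher, among them Atf3, Arc and F3, where 0.538% of all rows were. None was called lower, where 0% of all rows were with PDGFA and 0.0171% with FGF1. The list medians were 0.19 and 0.10. F3, the tissue factor gene, had 91.7 FPKM [67.4 to 115] in starved, 178 [89.4 to 266] in PDGFA and 194 [126 to 262] in FGF1 cells. Its PDGFA value was above the starved one too, with overlapping intervals. Pdgfa, whose product was the ligand added, had 49.7, 58.5 and 49.1 FPKM, and Thbs1 was a failed estimate, listed at 0 in starved and FGF1 cells.

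Of 7 myelin genes, targets of Egr2 in Schwann cells, 4 were compared and 0 called, near the 0.308% and 0.538% of all rows, with medians of −0.08 and 0.02. Prx, of periaxin, had 5.01, 6.65 and 5.28 FPKM. The glial factor Sox10 was at 0.593 FPKM in starved, 0.381 in PDGFA and 0.526 in FGF1 cells.

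Of the genes next to the members on the chromosome, Pebp4, Fbxo41 and Alms1 were under the minimum level and were not compared. None of the others was called in any comparison. With 0.308% of all rows called higher with PDGFA and 0.538% with FGF1, this is near the background and is no result about them. Reep2 and Etf1 flank Egr1, and Etf1 had 60.3, 62.4 and 69.9 FPKM. Ado, 2323 bp from Egr2, had 10.4, 10.8 and 9.57 FPKM, and Nrbf2 on its other side 5.97, 5.04 and 6.40. Next to Egr3 were Pebp4, at or near 0, and Bin3, with 11.9, 11.4 and 12.2. Next to Egr4 were Fbxo41 and Alms1, all under 1 FPKM, and next to Nab1 was Nemp2, with 1.02, 0.814 and 0.929.

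The Nab2 row overlaps other genes. Its 3′ end overlaps that of Stat6 on the opposite strand by 70 bp in RefSeq, and the deposited locus of the Nab2 row reaches across Stat6. Stat6 had 26.5 FPKM [18.7 to 34.4], 25.9 [0.120 to 53.96] and 27.2 [13.3 to 41.2], and it was not called in any comparison. Lrp1, next to Nab2, had 102.3, 102.0 and 94.2 FPKM, and Nemp1 had 2.04, 1.90 and 2.16. In GENCODE M21 Nab2 is overlapped on the opposite strand by the antisense gene Gm16229, by 1646 bp, and by Nemp1, by 1668 bp. Of the 31-base words of the 2 Nab2 transcripts, 32.7% and 36.6% occurred in another gene, and all but 0.552% and 0.618% of the words did so only through these overlapping genes. The share found in Nemp1 was 0%, and in Stat6 0.394% and 0.397%. Strand-specific counting is not stated, so reads of Nab2 and Gm16229 cannot be told apart. For the EGR genes the share of words found elsewhere was 0% for Egr1, 0.477% for Egr2, 0.588% for Egr3 and 0.378% for Egr4, mostly in one another, and for Nab1 it was 6.98%.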

How the data were processed

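The submitters' processing notes name CASAVA, TopHat, Cuffdiff and build mm10, without roles. Not given in the sources used here were versions, annotation and strand use. Per the file headers, the authors deposited 1 FPKM per group with bounds of unstated confidence level. FPKM is a relative measure, so large changes elsewhere can move a gene. How the authors scaled the libraries is unknown here. Replicates have no values here, so p-values and SDs could not be computed.

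RefSeq accessions were matched to symbols in the GRCm38.p6 gene table (22992 of 23286 rows, 126 more through GENCODE M21). Rows under 1 FPKM in all groups, and 2 with failed estimates, were left out. Calls needed deposited intervals apart. Ratio intervals used the delta method with bounds read as 95% bounds. The trend was a robust cubic regression on GC content, log2 length and log2 level. Genes named are the 6 members, their neighbours on the chromosome, the 3 nearest rows of each called member, and in each list those called and the largest folds; others, such as the TCF genes, Chd4, Wt1, Pdgfa, Thbs1 and Sox10, were chosen after their values were seen. Some genes that this rule names are not reported here. The members and lists were chosen with earlier results of these data known. Computation used Python 3.11.15 with scipy 1.17.1 for intervals and statsmodels 0.14.6 for the trend, besides pandas 2.3.3, numpy 2.4.6 and, for plots, matplotlib 3.10.9.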

Additional observations from a re-analysis of the deposited data

How the results depend on the processing

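The 9 alternatives were 2 pseudocounts, 2 minimum levels, 2 scalings, the trend removed, the ratio interval and a 2-fold minimum. Of 18 combinations of member and comparison, 15 kept their call or lack of one in all 9. The pseudocounts and minimum levels could not change a member's call, because the interval rule uses no pseudocount and every member passed both levels. A call kept under those settings is therefore no result. The direction turned once, for Nab1 with PDGFA, which was not called and had a log2 fold of 0.01 as reported and −0.05 with quantile normalization. The calls that differed were those of Egr1 between the ligands (call lost with median-of-ratios scaling, log2 fold 1.19), and of Nab2 with PDGFA and Egr4 between the ligands (called by the ratio interval). Members called between ligands were then 0 and 2 in place of 1. Over all rows, the ratio interval gave 126 higher and 5 lower with PDGFA, 121 and 21 with FGF1, and 14 and 41 for FGF1 against PDGFA, in place of 36, 0, 63, 2, 3 and 11. Rows lower with PDGFA were 1 with no minimum level and 3 with quantile normalization. Rows lower with FGF1 were 1 with at least 5 FPKM and 1 with the 2-fold minimum. Against PDGFA, 5 were lower with at least 5 FPKM and 1 higher with median-of-ratios scaling. Without Egr1 the EGR sums were 1.13, 45.7 and 36.2 FPKM in starved, PDGFA and FGF1 cells, and the EGR to NAB ratios 0.0247, 0.542 and 0.393. Beyond fewer rows under a higher minimum and Egr1 leaving the sum, the cause was not tested. No paired analysis was possible because the columns are group values with no replicate number, and leaving out each library was not run for the same reason. Depth is unknown, and the wide PDGFA intervals limit what could be called there.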
